A study of Mus musculus with 18 samples.

Results

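Airway repair in mice that carry a deletion of Cebpa was followed by comparing arrays of terminal bronchiolar epithelial cells taken 72 hr after naphthalene with arrays of the same genotype at 0 hr. The members were the 3 arrays titled 72hr_KO1 to 72hr_KO3 and the 3 titled 0hr_KO1 to 0hr_KO3, which made 6 of the 18 arrays in the series. All mice, the controls included, were mixtures of the FVB/N and C57BL/6 strains and are labelled with naphthalene injury, and the genotypes are written Cebpa d/d and control. Control mice gave 3 arrays at each of the same times, and both genotypes were also sampled at 3 hr, so each of 6 groups held 3 arrays. The labels give neither the driver of the deletion nor the ages of the mice, and they do not say that the numbered replicates came from separate animals. The p-values therefore reflect only how far these samples differ from each other, part of which may be technical.

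Naphthalene injures the small airways of mice because club cells, the secretory cells of the bronchiole, convert it with the cytochrome P450 enzyme Cyp2f2 into a product that kills them. Ciliated cells largely survive and flatten over the bare surface, and in the following days surviving club cells divide and rebuild the secretory lining. Cebpa encodes C/EBP alpha, a transcription factor needed for maturation of lung epithelium. The series addresses how C/EBP alpha bears on the balance of proteases and their inhibitors and on recovery of the airway after injury.

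Values are log2 levels, so 1 unit is a 2-fold difference, and each change is the mean at 72 hr minus the mean at 0 hr with its standard error (SE). A gene is said to have risen or fallen where limma gave a Benjamini-Hochberg adjusted p under 0.05 over 19938 genes. With all arrays, 675 genes rose, which is 3.39% of those tested, and 283 fell, which is 1.42%, while 17.5% had an unadjusted p under 0.05. Without Cebpa d/d 72 hr replicate 1, 886 genes rose (4.44%) and 386 fell (1.94%), with 18.9% at an unadjusted p under 0.05. The counts of risen and fallen genes also moved by more than 1.5 times without either other 72 hr array, to 260 and 138 without replicate 2 and to 359 and 153 without replicate 3. They came to 424 and 188 without 0 hr replicate 1, and to 434 and 183 without 0 hr replicate 2.

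Cebpa itself read 8.27, 8.11 and 7.83 in the Cebpa d/d arrays at 0 hr and 9.07, 8.55 and 7.90 at 72 hr. Replicate 1 at 72 hr had the highest value of the 6. The change was 0.44 (SE 0.42, adjusted p = 0.664), and without that array it was 0.16 (adjusted p = 0.905). In control the 72 hr arrays read 9.69, 9.80 and 9.87, and the arrays at 0 hr read 7.89, 10.07 and 10.17. The array labelled control 0 hr replicate 1 thus lay in the range of the deleted mice, against its label. Whether the probe set lies inside the deleted part of the gene is not given in the sources used here.

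Cebpa d/d 72 hr replicate 1 stood apart from its fellows. In that array 59 genes lay more than 1 log2 unit above both other arrays of the group and 66 lay as far below both, against 8 and 2 genes for replicate 2 and 1 and 3 for replicate 3. Pearson's r over all probe sets was 0.9861 with replicate 2 and 0.9878 with replicate 3, while those 2 arrays correlated at 0.9917. In that array the club cell list averaged slightly more than in any 0 hr array, while mitosis and cilium genes were raised, as described below. Counts over gene lists and the changes of the leading genes are therefore given with and without it, and every other gene named whose call depended on it is said to have done so. Sex was read from Xist and Eif2s3y: all 3 Cebpa d/d arrays at 72 hr were female, while at 0 hr replicate 1 was female and replicates 2 and 3 were male. In control all 3 arrays at 72 hr were female too, while at 0 hr replicates 1 and 2 were male and replicate 3 was female. With sex as a term in the model, 362 genes rose and 191 fell in Cebpa d/d.

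The labelled cell type was checked against defining markers. Scgb1a1, the main secretoglobin of club cells, read 12.55 to 12.84 in the 6 Cebpa d/d arrays, on a scale that reached 13.93. Cyp2f2 read higher at 0 hr, at 13.04 to 13.18, and its change of -0.61 passed without replicate 1 (adjusted p = 5.1e-04). Whether a ceiling on the signal hid a change in Scgb1a1 was not tested. Sftpc, which marks alveolar type 2 cells, read 13.04 to 13.26, and the endothelial adhesion gene Pecam1 read 9.28 to 10.23, so the samples held lung cells beyond the airway epithelium. Krt5, the keratin of basal cells, read 5.58 to 5.97. In bulk samples such as these, fewer cells of a type and less RNA per cell cannot be told apart.

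Genes of mitosis and the spindle made up the broadest rise. Of 61 measured members of that list, 55 rose with all arrays and 0 fell, with a median change of 1.07 against -0.02 for all genes. Without replicate 1, 54 rose and the median was 1.37. The mean level of the list was 6.43, 6.54 and 6.45 in the 0 hr arrays and 7.25, 7.94 and 7.62 in the 72 hr arrays. Replicate 1 was the lowest of the 72 hr arrays for 51 of the 61 genes, yet it lay above the 0 hr range for 58 of them. How many of all genes did either was not counted.

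The 4 members with the smallest adjusted p were Cenpf, Bub1b, Ect2 and Aspm. Their promoters are shown because genes of late cell division are known to share a pair of short promoter elements: the cell cycle genes homology region (CHR), through which the MuvB-containing complexes act, and the CCAAT box, which binds NF-Y. The sequences are those of RefSeq on build GRCm38.p6, from 250 bases before to 50 bases after the annotated start, read in the direction of transcription. The window of Cenpf is chr1:189688037-189688336 on the minus strand and that of Bub1b is chr2:118597961-118598260 on the plus strand. The window of Ect2 is chr3:27153829-27154128 on the minus strand, the first of 2 entries for that gene, and that of Aspm is chr1:139454523-139454822 on the plus strand. Capitals mark the letters searched for on both strands, for the CHR either TTTGAA or TTTAAA, and for the CCAAT box CCAAT, so that its reverse complement ATTGG is capitalised too. A CHR and a CCAAT match can share at most 1 end letter.
Cenpf: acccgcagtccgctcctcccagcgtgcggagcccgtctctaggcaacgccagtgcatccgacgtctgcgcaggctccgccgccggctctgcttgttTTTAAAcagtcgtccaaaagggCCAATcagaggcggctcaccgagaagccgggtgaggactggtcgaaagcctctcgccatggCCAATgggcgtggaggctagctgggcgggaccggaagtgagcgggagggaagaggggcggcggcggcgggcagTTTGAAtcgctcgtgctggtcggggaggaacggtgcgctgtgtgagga
Bub1b: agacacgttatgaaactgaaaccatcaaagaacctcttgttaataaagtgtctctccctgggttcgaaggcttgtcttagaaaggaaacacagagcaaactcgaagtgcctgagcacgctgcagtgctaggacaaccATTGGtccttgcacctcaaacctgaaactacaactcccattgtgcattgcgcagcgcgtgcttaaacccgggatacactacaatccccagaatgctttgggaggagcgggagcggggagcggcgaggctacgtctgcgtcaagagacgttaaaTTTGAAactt
Ect2: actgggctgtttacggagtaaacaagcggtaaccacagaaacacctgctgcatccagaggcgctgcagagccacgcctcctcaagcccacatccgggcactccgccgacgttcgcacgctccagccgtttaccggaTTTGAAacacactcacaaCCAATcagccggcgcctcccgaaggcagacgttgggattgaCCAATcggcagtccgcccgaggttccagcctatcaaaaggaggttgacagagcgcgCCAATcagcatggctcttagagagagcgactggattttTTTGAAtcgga
Aspm: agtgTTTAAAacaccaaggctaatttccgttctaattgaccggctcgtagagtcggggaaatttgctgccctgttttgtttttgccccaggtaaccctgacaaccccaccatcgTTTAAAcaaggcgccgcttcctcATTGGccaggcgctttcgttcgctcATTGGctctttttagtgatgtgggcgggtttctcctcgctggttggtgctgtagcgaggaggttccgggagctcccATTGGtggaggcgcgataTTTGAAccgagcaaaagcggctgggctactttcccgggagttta

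These windows held 2, 1, 2 and 3 CHR matches and 2, 1, 3 and 3 CCAAT matches in the order printed. Of the 61 mitosis genes, 51 had a promoter in the table, and 39 of the 51 (76.5%) held a CHR, 36 (70.6%) a CCAAT box and 31 (60.8%) both. Of the 15614 tested genes with a promoter, 24% held a CHR, 38.2% a CCAAT box and 9.61% both. Among 36 DNA replication genes the shares were 22.2%, 63.9% and 16.7%, and among 43 ciliated cell genes they were 9.3%, 41.9% and 2.33%. A match describes the letters of the window and is not evidence of binding.

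Cenpf, a kinetochore protein, read 6.55, 6.67 and 6.36 at 0 hr and 8.22, 8.61 and 8.33 at 72 hr. The groups did not overlap, and the rise was 1.86 (SE 0.13, adjusted p = 1.57e-06). Bub1b, a spindle checkpoint kinase, read 5.35, 5.33 and 5.27 at 0 hr and 6.69, 7.20 and 6.79 at 72 hr, a rise of 1.58 (SE 0.12, adjusted p = 3.87e-06). Ect2, which drives the closing of the cleavage furrow, went from 6.17, 6.64 and 6.64 to 8.07, 8.69 and 8.41, a rise of 1.90 (SE 0.16, adjusted p = 8.27e-06). In all these genes replicate 1 was raised but was the lowest of the 3 arrays at 72 hr. Without it the rises were 1.94 for Cenpf, 1.68 for Bub1b and 2.06 for Ect2, and all passed.

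Cenpe, a kinetochore motor protein, had the largest rise of the list at 2.08 (SE 0.19), followed by Cdk1, the kinase that drives entry into mitosis, at 2.05 (SE 0.23). Cdk1 read 8.03 in replicate 1 and 9.28 and 8.65 in replicates 2 and 3, against 6.54 to 6.67 at 0 hr. Mki67, the usual marker of dividing cells, read 6.52 to 6.82 at 0 hr and 7.68, 8.71 and 8.47 at 72 hr, a rise of 1.62 (SE 0.21, adjusted p = 2.39e-04), or of 1.93 without replicate 1. Bub1, a checkpoint kinase, showed the widest gap between replicates among those named, with 6.21 in replicate 1 and 7.93 and 7.51 in the others. The 6 members that did not pass were Kif18b, Cdc25b, Mybl2, Pttg1, Bub3 and Espl1, with changes from -0.01 for Espl1 to 0.31 for Kif18b. Without replicate 1, Plk4, the kinase that starts centriole copying, also did not pass (change 0.57, adjusted p = 0.056).

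Genes of DNA replication rose less. Of 41 measured, 15 rose with all arrays and 25 without replicate 1, and 0 fell in either fit, with medians of 0.47 and 0.58. Fen1, the flap nuclease of lagging-strand synthesis, read 6.37 to 6.43 at 0 hr and 6.99, 7.24 and 7.11 at 72 hr, a rise of 0.71 (SE 0.10). Tyms, which makes thymidylate, rose by 0.89 (SE 0.13), and Prim2, a primase subunit, by 0.80 (SE 0.11). Without replicate 1 these rises were 0.77, 1.07 and 0.88. The 6 subunits of the replicative helicase were split: Mcm2, Mcm6 and Mcm7 passed with all arrays, with rises of 0.46, 1.22 and 0.63, and Mcm3, Mcm4 and Mcm5 passed only without replicate 1. Mcm3 read 6.38 in replicate 1 and 7.19 and 6.99 in the others, and its change was 0.67 with all arrays (adjusted p = 0.0657) and 0.91 without replicate 1 (adjusted p = 0.0066). Of 31 regulators of the cell cycle, 5 rose with all arrays and 6 without replicate 1, where 3.39% and 4.44% of all genes rose. Among them were Ccnd1, the cyclin of the G1 phase, by 0.70 (SE 0.13) and its kinase Cdk4 by 0.59 (SE 0.11).

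**Figure D1:**
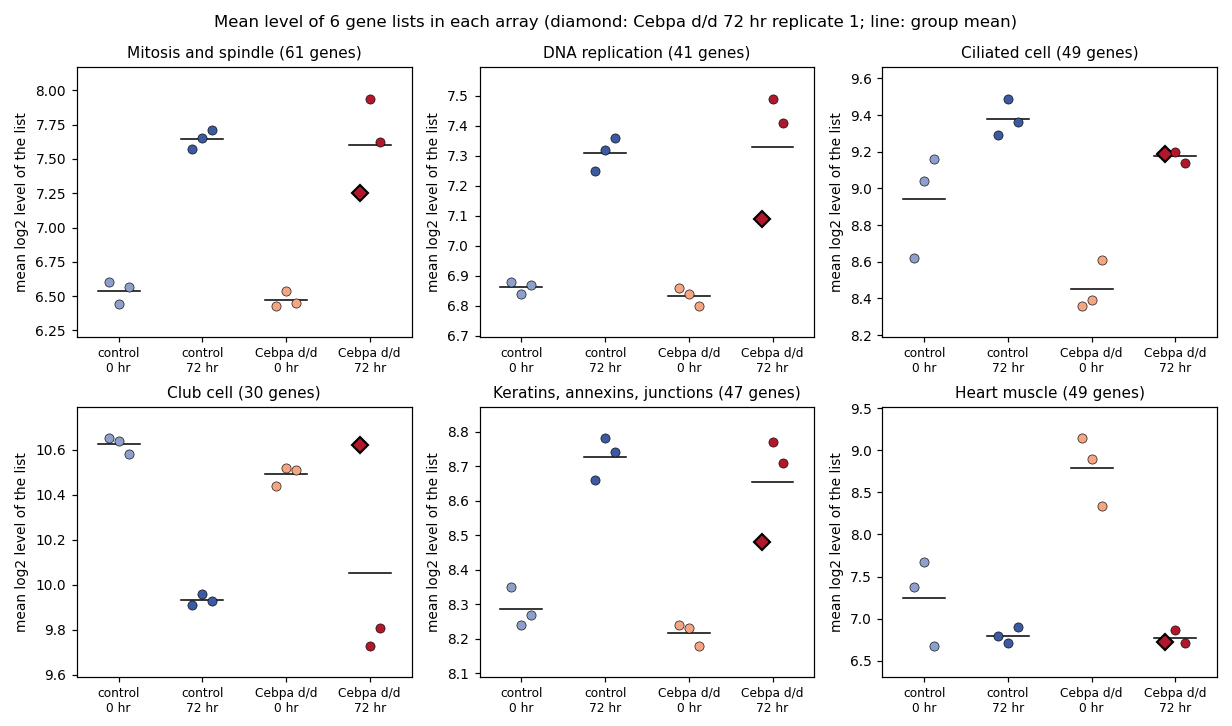
Mean log2 level of 6 gene lists in each array of control and Cebpa d/d mice at 0 and 72 hr; points are arrays, lines are group means of 3 arrays and the diamond is Cebpa d/d 72 hr replicate 1. In the Cebpa d/d arrays the mitosis list moves from 6.43 to 6.54 up to 7.25 to 7.94, the club cell list stays at 10.62 in the diamond while the other 72 hr arrays read 9.73 and 9.81, and the heart muscle list is high at 0 hr only.

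Ciliated cell genes also rose as a broad group, and there the list means of the 72 hr arrays lay close together. Of 49 measured, 24 rose and 0 fell with all arrays, with a median of 0.71, and 20 rose without replicate 1, with a median of 0.70. The mean level of the list was 8.36, 8.39 and 8.61 at 0 hr and 9.19, 9.20 and 9.14 at 72 hr. Dynlrb2, a light chain of the dynein motor, read 10.52, 10.27 and 10.42 at 0 hr and 11.72, 11.89 and 11.74 at 72 hr, a rise of 1.38 (SE 0.13, adjusted p = 1.96e-05). The groups were more than 1 unit apart with no overlap, and the rise was 1.41 without replicate 1. Rsph9, of the radial spoke, rose by 1.16 (SE 0.15), and Ift80, of intraflagellar transport, by 0.82 (SE 0.10). The dynein heavy chains Dnah5, Dnah9 and Dnah11 rose by 0.97, 0.88 and 0.81.

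Cfap52, a protein of the cilium, had the largest rise of the list at 1.85 (SE 0.28), and replicate 1 lagged in it, with 8.60 against 9.94 and 9.57. Foxj1, the transcription factor that switches on the ciliated cell programme, read 7.18 to 7.25 at 0 hr and 7.51, 7.74 and 7.65 at 72 hr. Its groups did not overlap, but its change of 0.41 (SE 0.13) did not pass (adjusted p = 0.0855). In control 10 of the 49 genes rose, from a list mean of 8.62 to 9.16 at 0 hr, and no member passed the test of the difference between genotypes. The 0 hr level of the list was thus lower in all 3 Cebpa d/d arrays than in the control arrays, with 8.61 beside 8.62 as the closest pair.

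Club cell genes are where replicate 1 decided the result. Of 30 measured, 3 rose and 3 fell with all arrays, with a median of -0.26, while without replicate 1, 2 rose and 13 fell, with a median of -0.44. The shares of all genes that rose and fell were 3.39% and 1.42% with all arrays, and 4.44% and 1.94% without replicate 1. The list averaged 10.44, 10.52 and 10.51 at 0 hr and 10.62, 9.73 and 9.81 at 72 hr. Replicate 1 was the highest 72 hr array for 24 of the 30 genes. Replicates 2 and 3 both lay below the 0 hr range for 20 genes, whereas replicate 1 lay above that range for 18 and within it for 6. The matching shares over all genes were not counted.

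Cyp2f2, the enzyme that activates naphthalene, read 13.04, 13.18 and 13.16 at 0 hr and 13.11, 12.41 and 12.62 at 72 hr. Replicate 1 lay within the 0 hr range and the other arrays below it. The change was -0.42 (SE 0.12, adjusted p = 0.0681) with all arrays and -0.61 (adjusted p = 5.1e-04) without replicate 1. The secretoglobin Scgb3a2 read 12.29, 11.05 and 11.56 at 72 hr, against 12.17 to 12.39 at 0 hr, and fell by 0.97 only in the fit without that array (adjusted p = 1.32e-04). Scgb1a1 changed by -0.14 (SE 0.08, adjusted p = 0.397).

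The gap between the arrays was wide in a group of secretory and metabolic genes. Scgb1c1, another secretoglobin, read 10.31, 10.51 and 10.44 at 0 hr and 10.84, 7.44 and 7.27 at 72 hr. Aox3, an aldehyde oxidase, read 9.85, 10.15 and 10.50 at 0 hr and 10.61, 7.16 and 7.15 at 72 hr. Pon1, a paraoxonase, read 8.73, 9.05 and 8.57 at 0 hr and 8.82, 4.48 and 4.92 at 72 hr. In each of them replicates 2 and 3 lay more than 2 units below every 0 hr array and replicate 1 did not. Without replicate 1 the changes were -3.07 for Scgb1c1 (adjusted p = 3.48e-06), -3.01 for Aox3 (adjusted p = 3.48e-06) and -4.08 for Pon1 (adjusted p = 1.28e-04). Lypd2 and Chad fell by 2.56 and by 2.39 in that fit. All 5 genes were among its 10 largest falls outside the heart and skeletal muscle lists. With all arrays none of the 5 passed (adjusted p from 0.0681 to 0.138).

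The members that passed with all arrays were Upk3a, Cyp2s1 and Gsto1, which rose, and Gsta3, Fmo1 and Ces1f, which fell. Upk3a, a uroplakin found in a subset of club cells, read 7.19 to 7.32 at 0 hr and 8.04, 7.70 and 8.09 at 72 hr, a rise of 0.67 (SE 0.11, adjusted p = 0.00119), or of 0.62 without replicate 1. Gsto1, another glutathione transferase, rose by 0.76 (adjusted p = 0.0331) and lost its call without that array (0.78, adjusted p = 0.0507). Gsta3, a glutathione transferase, read 11.27 to 11.50 at 0 hr and 11.18, 9.84 and 9.85 at 72 hr. It fell by 1.09 with all arrays (SE 0.26, adjusted p = 0.0211), and by 1.54 without replicate 1. The list of enzymes that handle foreign compounds and glutathione, which shares Gsta3 and other genes with the club list, showed the same split. Of 36 measured, 2 rose and 2 fell with all arrays, and 1 rose and 10 fell without replicate 1. Beside these, 3.39% of all genes rose and 1.42% fell with all arrays, and 4.44% and 1.94% without replicate 1. Mgst1, a membrane-bound glutathione transferase, read 11.65 in replicate 1 and 10.66 and 10.69 in the others, against 11.45 to 11.59 at 0 hr, and fell only in the fit without that array (-0.86, adjusted p = 7.53e-05).

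**Figure D2:**
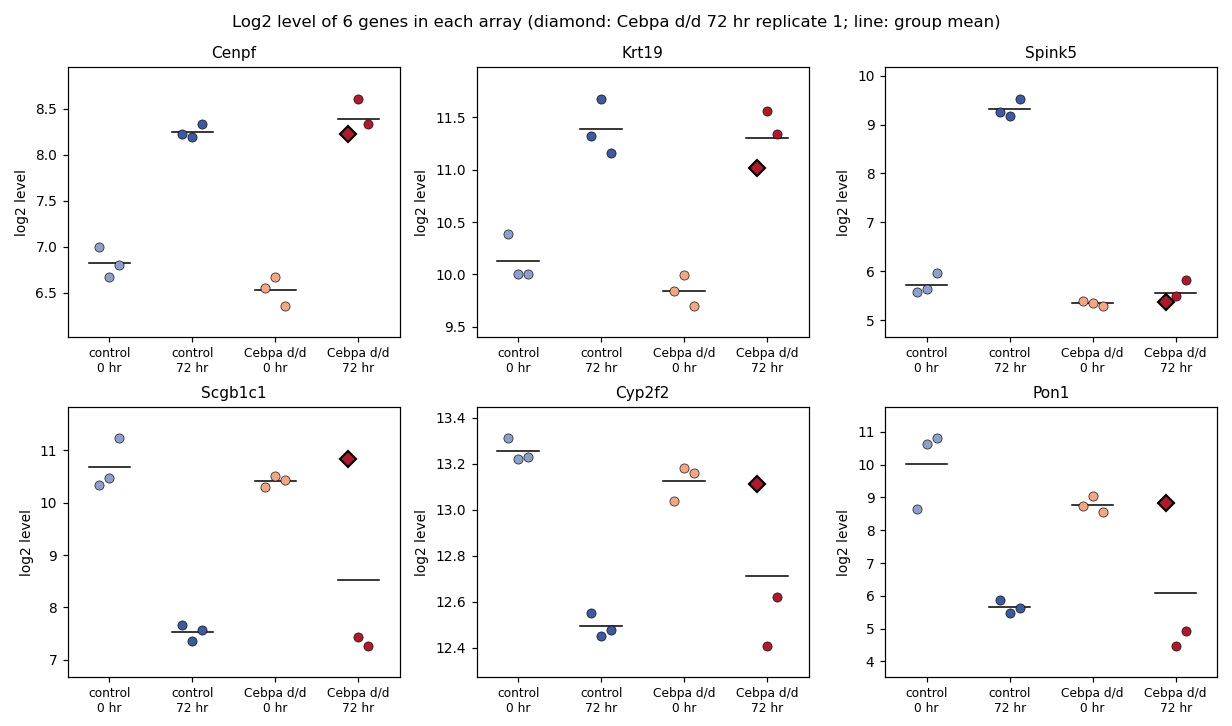
Log2 level of 6 genes in each array of control and Cebpa d/d mice at 0 and 72 hr; points are arrays, lines are group means of 3 arrays and the diamond is Cebpa d/d 72 hr replicate 1. Cenpf and Krt19 are raised in all 3 Cebpa d/d arrays at 72 hr, Spink5 is raised at 72 hr in control only, and Scgb1c1, Cyp2f2 and Pon1 are low at 72 hr in all arrays but the diamond.

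Mucous cell genes fell in part. Tff2, a trefoil peptide of mucus, read 8.37, 8.10 and 8.13 at 0 hr and 6.87, 6.18 and 6.62 at 72 hr, a change of -1.64 (adjusted p = 1.68e-04), or of -1.80 without replicate 1. In control Tff2 read 7.23, 7.43 and 6.40 at 0 hr, below every Cebpa d/d array at that time, and changed by -0.88 (adjusted p = 0.0165). The difference between genotypes did not pass (-0.76, adjusted p = 0.983). Of 19 genes on the list, 0 rose and 3 fell with all arrays, and 1, the membrane mucin gene Muc4, rose and 5 fell without replicate 1. Muc5b, the main airway mucin of the mouse, read 8.53 to 8.63 at 0 hr and 7.55, 6.30 and 6.46 at 72 hr, and changed by -1.81 (adjusted p = 0.0506), or by -2.20 without replicate 1 (adjusted p = 0.0225). Here replicate 1 was low as well, but less so than its fellows. None of the 14 basal cell genes passed with all arrays, and 1, the laminin gene Lamb3, rose without replicate 1 (0.48, adjusted p = 0.0156). With all arrays 3.39% of all genes rose and 1.42% fell. Krt5 changed by -0.14 (SE 0.12, adjusted p = 0.613).

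Keratins, annexins and junction genes that mark stretched and repairing epithelium rose in part. Of 47 measured, 15 rose and 0 fell with all arrays (median 0.32), and 20 rose without replicate 1 (median 0.37). Krt19, a keratin of simple epithelia, read 9.84, 9.99 and 9.70 at 0 hr and 11.02, 11.56 and 11.34 at 72 hr, a rise of 1.47 (SE 0.23, adjusted p = 0.00124), or of 1.61 without replicate 1. The simple keratins Krt8, Krt18 and Krt7 rose by 0.97, 0.77 and 1.10. Krt7 read 9.92 in replicate 1 and 11.28 and 10.98 in the others, so only replicates 2 and 3 moved far above the 0 hr range of 9.59 to 9.70.

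Clu, a secreted chaperone found in many injured epithelia, read 9.44 to 9.95 at 0 hr and 10.60, 11.88 and 12.15 at 72 hr, a rise of 1.79 (SE 0.29). Anxa1, an annexin that restrains inflammation, rose by 1.33 (SE 0.22). Anxa8 was raised as strongly in replicate 1 as in its fellows, with 9.78, 10.05 and 9.90 against 7.79, 8.07 and 8.55 at 0 hr, a rise of 1.77 (SE 0.39, adjusted p = 0.0139). It lost that call without replicate 2 or 3 at 72 hr, without replicate 1 or 2 at 0 hr, and with the sex term, with adjusted p up to 0.0757. Psca, a small cell surface protein of epithelia, behaved otherwise: it read 5.18 to 5.52 at 0 hr and 5.32, 8.34 and 8.10 at 72 hr, so replicate 1 lay within the 0 hr range and the others far above it. Its change was 1.88 with all arrays (adjusted p = 0.0369) and 2.85 without replicate 1 (adjusted p = 2.22e-07).

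Among proteases, 4 of 60 measured rose and 1 fell with all arrays, and 9 rose and 1 fell without replicate 1. Over all genes 3.39% rose and 1.42% fell with all arrays, and 4.44% and 1.94% did so without replicate 1. Tmprss2, a serine protease of the epithelial surface, read 9.01, 9.04 and 9.23 at 0 hr and 9.84, 10.15 and 10.04 at 72 hr, a rise of 0.92 (SE 0.10, adjusted p = 6.1e-05) that also passed without replicate 1 (adjusted p = 3.22e-05). Lgmn, a lysosomal asparaginyl protease, rose by 0.83 (SE 0.18), and the matrix metalloproteases Mmp23 and Mmp2 by 0.59 and 0.67. Prss23, a secreted serine protease, fell by 0.73 (SE 0.14). Mmp14, a membrane metalloprotease, read 8.21 in replicate 1 and 8.82 and 8.98 in the others, against 7.90 to 7.94 at 0 hr, and passed only without replicate 1 (change 0.98, adjusted p = 0.0136). Ctss, a cathepsin of immune cells, changed by 0.20 (SE 0.23, adjusted p = 0.734).

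Among protease inhibitors, 3 of 47 measured rose with all arrays and 5 without replicate 1, and 0 fell in either fit. The shares of all genes that rose were 3.39% and 4.44%. Wfdc3, of the whey acidic protein family that includes several protease inhibitors, had the largest rise of any gene outside the muscle lists: it read 6.05, 5.73 and 6.33 at 0 hr and 7.70, 8.73 and 8.57 at 72 hr, a rise of 2.30 (SE 0.28, adjusted p = 1.51e-04), or of 2.61 without replicate 1. Cstb, an inhibitor of cysteine cathepsins, rose by 1.03 (SE 0.20), and Spint2, an inhibitor of membrane serine proteases, by 0.45 (SE 0.12). Spint2 lost its call without replicate 1, with an adjusted p of 0.135. In that fit 3 others gained one: Serpina3n, a serpin of the acute phase, at 1.67 (adjusted p = 0.0254), the broad inhibitor A2m at 1.05 (adjusted p = 0.00357) and Serpinb6b at 0.68 (adjusted p = 0.0126). Slpi, the secretory leukocyte protease inhibitor, changed by 0.00 (SE 0.26), and Timp1, an inhibitor of metalloproteases, read 6.37 in replicate 1 and 7.83 and 7.96 in the others, with a change of 1.18 that did not pass (adjusted p = 0.375).

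Spink5, which encodes the serine protease inhibitor LEKTI, gave the clearest difference between genotypes. In Cebpa d/d it read 5.39, 5.36 and 5.30 at 0 hr and 5.37, 5.50 and 5.83 at 72 hr, so the groups overlapped and the change was 0.22 (SE 0.15, adjusted p = 0.487). In control it read 5.59, 5.64 and 5.96 at 0 hr and 9.25, 9.17 and 9.53 at 72 hr, a rise of 3.59 (adjusted p = 3.87e-10). All 3 control arrays at 72 hr lay more than 3 units above every other array named here, and the Cebpa d/d change minus the control change was -3.37 (adjusted p = 2.57e-07). Without Cebpa d/d 72 hr replicate 1 that difference was -3.27 (adjusted p = 1.37e-06), and without the array labelled control 0 hr replicate 1 it was -3.30 (adjusted p = 1.81e-06).

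Set against control, few changes differed by the test of the difference itself. In the test of the difference between genotypes 19 genes passed, all with a lower change in Cebpa d/d, which is 0.0953% of those tested, and 0 passed with a higher change, while 892 (4.47%) had an unadjusted p under 0.05. Without Cebpa d/d 72 hr replicate 1 the same test passed 3 genes (0.0150%), Spink5, Myom1 and Pgam2, with 3.47% at an unadjusted p under 0.05, and without the array labelled control 0 hr replicate 1 it passed the same 3. In control 987 genes rose (4.95%) and 438 fell (2.20%). Of the genes that rose in Cebpa d/d, 445 also rose in control, which is 65.9% of the Cebpa d/d list and 45.1% of the control list. Of those that fell, 60 also fell in control, or 21.2% and 13.7%. In the fit without replicate 1 the control lists changed too, to 1106 genes that rose and 527 that fell. The shared rises there numbered 643, or 72.6% of the Cebpa d/d list and 58.1% of the control list. The shared falls numbered 155, or 40.2% and 29.4%. The comparisons share no arrays, but the spread of all groups was estimated together.

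Across the 19938 genes, which are not independent replicates, the change in Cebpa d/d correlated with the change in control at 0.69 (Pearson's r), and at 0.76 without replicate 1. Taken array by array, each minus the mean of Cebpa d/d at 0 hr, r was 0.36 for replicate 1, 0.76 for replicate 2 and 0.70 for replicate 3. The genes that rose in control had a median change of 0.30 in replicate 1, 0.68 in replicate 2 and 0.54 in replicate 3, beside 0.69 in control itself. Those that fell in control had medians of -0.10, -0.37 and -0.31, beside -0.51.

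**Figure D3:**
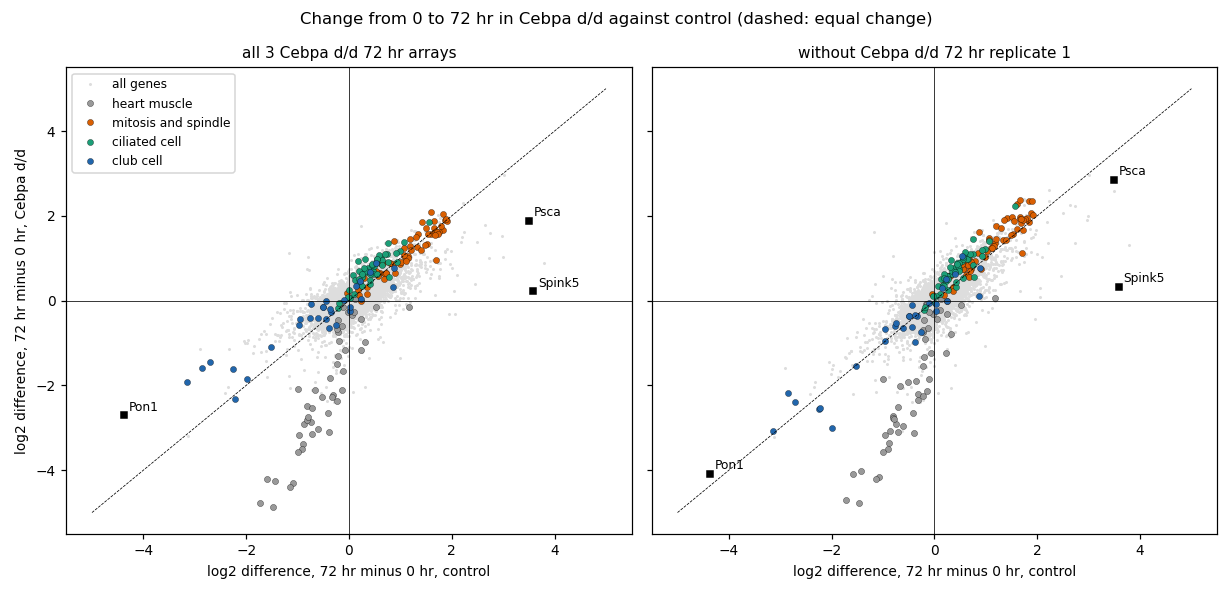
Change from 0 to 72 hr in Cebpa d/d (vertical, log2) against the change in control (horizontal, log2) for all 19938 genes, with all arrays at left and without Cebpa d/d 72 hr replicate 1 at right; the dashed line marks equal change. Mitosis genes lie along the line in both panels, heart muscle genes lie below it, Spink5 sits at 3.59 in control and 0.22 in Cebpa d/d, and Pon1 moves from -2.71 to -4.08 in Cebpa d/d when the array is left out.

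Acute phase and defence genes moved less in the deleted mice than in control for 3 members. Of 34 measured, 1 rose in Cebpa d/d, where 3.39% of all genes rose, while 8 rose in control, where 4.95% of all genes rose. The riser, Chia1, a chitinase, read 6.85 to 7.81 at 0 hr and 9.07, 8.51 and 8.85 at 72 hr, a rise of 1.49 (SE 0.21). Orm2, an acute phase glycoprotein, read 7.18, 6.99 and 6.68 at 0 hr and 6.89, 6.63 and 6.40 at 72 hr in Cebpa d/d, and 8.74, 8.84 and 8.18 at 72 hr in control. The difference between genotypes was -2.26 for Orm2, -2.07 for Sectm1b and -1.19 for Cd7, a T cell surface protein, with adjusted p of 0.0273, 0.0273 and 0.0396. Without replicate 1 these differences were -2.39, -1.88 and -1.30, and none passed, at adjusted p of 0.0718, 0.0879 and 0.0718. Leaving out the array labelled control 0 hr replicate 1 gave -2.30, -2.14 and -1.16, and none passed either. Orm2 belongs to a family of near-identical copies, so its probes may share signal with Orm1 and Orm3.

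Of 33 transcription factors of the airway, none passed with all arrays. That is near the shares over all genes, of which 3.39% rose and 1.42% fell. Nkx2-1 changed by 0.02 (SE 0.10), Foxa2 by 0.03 (SE 0.14) and Sox2 by 0.12 (SE 0.12), with adjusted p of 0.942, 0.953 and 0.7, and without replicate 1 the last 2 changed sign, to -0.14 and -0.04. Cebpb and Cebpd, relatives of Cebpa, changed by -0.05 (SE 0.12) and 0.25 (SE 0.24), with adjusted p of 0.89 and 0.671. Without replicate 1, Grhl1, a grainyhead factor of epithelia, fell by 0.88 (adjusted p = 0.0133), and Foxa1 fell by 0.34 (adjusted p = 0.0482).

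Genes of surrounding cells moved in the same samples, and their part in the results above was not tested. Of 23 endothelial genes 6 fell in either fit, among them the phosphatase Ptprb by 0.83 (SE 0.12), the angiopoietin receptor Tek by 1.02 (SE 0.17) and Pecam1 by 0.72 (SE 0.15), and the list averaged 8.94, 9.03 and 8.74 at 0 hr and 8.36, 8.29 and 8.38 at 72 hr. Of 34 fibroblast and matrix genes, none passed with all arrays and 7 rose without replicate 1. That array was the lowest 72 hr array for 30 of the 34, and how many of all genes were lowest in it was not counted. Of 26 macrophage genes 1 rose and 1 fell with all arrays, and 7 rose and 1 fell without replicate 1. The macrophage list averaged 7.53 in replicate 1 and 7.98 and 7.86 in the others, against 7.48 to 7.74 at 0 hr, and the fibroblast list 8.68, 9.16 and 9.09 against 8.75 to 8.90. In both lists replicate 1 lay within or below the 0 hr range. None of the 16 neutrophil genes passed in either fit. Beside these counts, 3.39% of all genes rose and 1.42% fell with all arrays, and 4.44% and 1.94% without replicate 1.

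**Figure D4:**
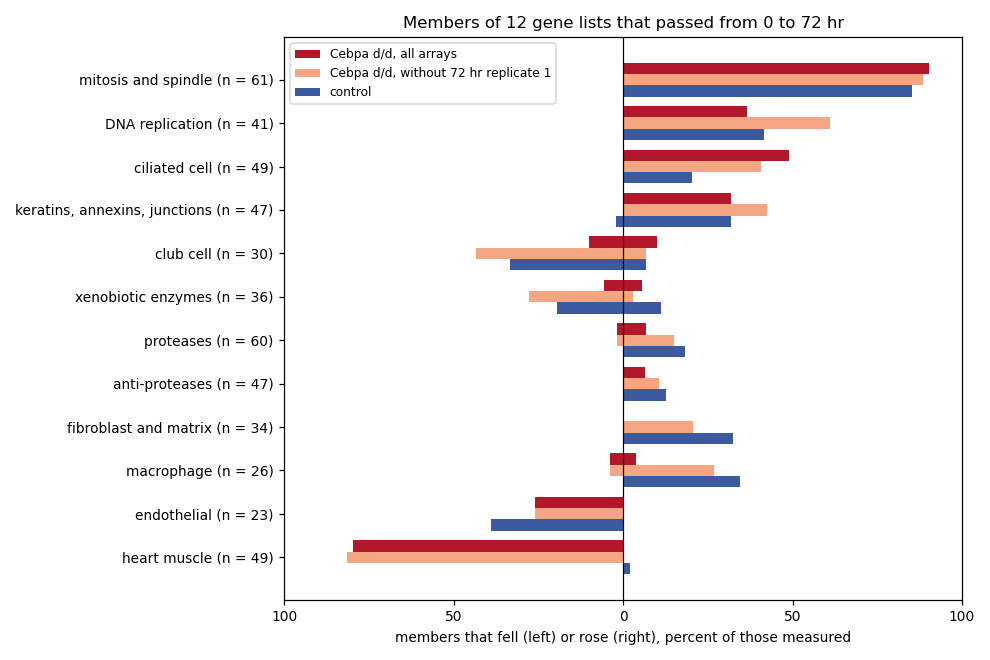
Percent of the measured members of 12 gene lists that rose (right) or fell (left) from 0 to 72 hr, for Cebpa d/d with all arrays, Cebpa d/d without 72 hr replicate 1 and control; n is the number of measured members. Mitosis genes rose in about the same number in all 3 fits (55, 54 and 52 of 61), club cell genes fell mainly without replicate 1 (13 against 3 of 30), and heart muscle genes fell in Cebpa d/d (39 of 49) and not in control (0 of 49).

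Heart muscle genes were the strongest fall and are kept apart, as genes of muscle and not of airway epithelium. The tissue their RNA came from was not tested. Of 49 measured, 39 fell with all arrays (median -2.10) and 40 without replicate 1 (median -2.01), while in control none fell. The list averaged 9.14, 8.90 and 8.34 in the Cebpa d/d arrays at 0 hr and 6.72, 6.87 and 6.71 at 72 hr, beside 7.38, 7.67 and 6.68 in control at 0 hr and 6.71 to 6.90 in control at 72 hr. The high values were thus those of Cebpa d/d at 0 hr, and for 43 of the 49 genes all 3 of those arrays lay above all 3 control arrays at 0 hr.

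Myh6, the main myosin heavy chain of the adult mouse heart, read 10.94, 10.40 and 10.15 at 0 hr and 5.93, 6.74 and 5.92 at 72 hr, a change of -4.30 (SE 0.53, adjusted p = 1.36e-04), or of -4.17 without replicate 1. Hamp, which encodes hepcidin and which the heart also makes, read 10.50, 9.94 and 8.26 at 0 hr and 4.48, 5.02 and 4.58 at 72 hr, a change of -4.88 (SE 0.53). Ttn, the giant spring of the sarcomere, changed by -3.51 (SE 0.31), and by -3.49 without replicate 1. Tnnt2, the cardiac troponin T gene, had a mean of 12.65 at 0 hr and 10.37 at 72 hr. Myl2 and Myh7 did not pass, at 0.04 and -0.14, and Myl2 averaged 4.85 at 0 hr. Myl3, another myosin light chain gene, changed by -3.38 (SE 0.30, adjusted p = 8.27e-06). Of the 19 genes whose change differed between genotypes, 8 were on the heart list.

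Of the 283 genes that fell, 39 (13.8%) were on the heart list. For 145 of the 283 (51.2%), all Cebpa d/d arrays at 0 hr lay above all control arrays at 0 hr. Of all genes 5.88% did so. The same held for 13 of the 15 largest falls outside the muscle lists. A high Cebpa d/d level at 0 hr enters both the fall and this count, so they are not independent. Among the 15 largest falls outside the muscle lists were Hrc (-3.03, SE 0.34), which binds calcium in muscle, Lmod2 (-2.39, SE 0.25) and Xirp2 (-2.36, SE 0.23), which build muscle filaments, and the fat cell genes Adipoq (-2.19, SE 0.42) and Fabp4 (-2.04, SE 0.33). Without replicate 1 these 5 changes ranged from -3.07 to -2.05. Hrc read 10.52, 9.95 and 9.09 in Cebpa d/d at 0 hr and 7.76, 8.11 and 6.49 in control at 0 hr. The part of heart tissue in these falls was not tested, and they are given as differences between these samples.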

How the data were processed

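Total RNA was hybridised to 18 Affymetrix arrays, and the table deposited by the authors gives 1 log2 value per probe set and array. Per the submitters' processing notes it was made with RMA, which corrects background, normalizes between arrays and summarises probes; its version, the build and any filter are not given in the sources used here. Saturation was not examined, since scanner files were not used, and precision is limited by the number of arrays. No per-array column was left unused.

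The platform annotation gave a single symbol for 21789 of the 35557 probe sets, several for 1621 and none for 12147; only the first kind was used. Where a gene had several probe sets, the one with the highest mean was kept, which left 19938 genes. Of these, 19856 were found in the RefSeq table of GRCm38.p6. Tests used limma 3.58.1 under R 4.3.3: 1 model of 6 group means on all 18 arrays, with no replicate term, 12 residual degrees of freedom and 4.49 from moderation, and Benjamini-Hochberg adjustment over all genes within a contrast at 0.05. Contrasts were 72 hr minus 0 hr in Cebpa d/d, the same in control, and their difference. The fit was tested on simulated data.

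Members and the 34 gene lists were chosen with earlier results of these data known, so lists are described by counts and medians and were not tested. Named genes are Cebpa, the 15 largest rises and falls that passed without overlap outside the muscle lists, the 10 largest of each without Cebpa d/d 72 hr replicate 1, the genes that passed the genotype difference, up to 4 per list with the smallest adjusted p, and fixed anchors. List members outside these that the text names, such as the Mcm genes, Muc4, Lamb3, Plk4, Serpina3n, A2m, Serpinb6b, Mgst1, Foxa1, the dynein heavy chains and Mmp2, were chosen after their values were seen. Alternatives were a filter at the median level, averaging of a gene's probe sets, a trended and robust variance, weighting of arrays, a block on the replicate number, the compared groups alone, arrays centred on their median, a sex term, and each array left out.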

Additional observations from a re-analysis of the deposited data

Results flagged for a closer look

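The change from 0 to 72 hr differed between Cebpa d/d and control, by the test of the difference itself, for 19 genes, and in each of them the Cebpa d/d change was the lower. For Spink5 the difference was -3.37. For 2 genes of the heart list, Myom1 and Pgam2, it was -1.39 and -2.71, and these 3 genes passed under every alternative in which they were tested. The other heart and sarcomere genes were Csrp3 at -2.42, Actn2 at -1.91, Tmod1 at -1.05, Mybphl at -1.25, Lmod2 at -2.10, Xirp2 at -1.93, Myl3 at -2.49, Ttn at -2.61, Tcap at -1.95, Txlnb at -2.03, Tecrl at -1.47 and Eno3 at -1.47. These read higher in all Cebpa d/d arrays at 0 hr than at 72 hr and, apart from Tecrl, lay near the control level at 72 hr. Tecrl also rose in control, by 0.61 (adjusted p = 0.0493). The acute phase gene Orm2 had -2.26, Sectm1b -2.07 and Cd7 -1.19, and in Cebpa d/d none of the 3 passed from 0 to 72 hr. The histone gene H3c15 had -1.47, and because histone genes have near-identical copies its probes may not separate them. Without the array labelled control 0 hr replicate 1, which goes against its label in its Cebpa level, only Spink5, Myom1 and Pgam2 passed.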

How the results depend on the processing

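Counts of genes are given as higher and lower from 0 to 72 hr, where the values with all arrays and no other change were 675 and 283 in Cebpa d/d, 987 and 438 in control, and 0 and 19 for the genotype difference. Array weights gave 1283 and 698, 1848 and 1285, and 1 and 68. The sex term gave 362 higher in Cebpa d/d and 589 and 201 in control. For the genes lower in the genotype difference, the filter at the median level gave 8 and the compared groups alone gave 4, from fewer genes or arrays. Leaving out 1 array at a time gave 260 to 886 higher and 138 to 386 lower in Cebpa d/d, 477 to 1119 and 137 to 527 in control, and 0 to 1 and 3 to 47 for the difference, the last without Cebpa d/d 0 hr replicate 3. Replicate numbers were not treated as pairs, and the labels do not say whether they pair the samples. Deviations of same-numbered Cebpa d/d arrays correlated at -0.125, 0.061 and -0.052, and of control arrays at -0.174, 0.045 and -0.046. Differently numbered arrays gave -0.119 to 0.125 in Cebpa d/d and -0.255 to 0.251 in control, so these values cannot settle the question. With the replicate number as a block the counts were 622 and 252, 894 and 352, and 0 and 13. Among genes named by the rules above, directions that turned belonged to genes that did not pass. These were Foxa2 at -0.07 with array weights and Slpi at -0.01 with centred arrays, and, without 1 array at a time, Foxa2 from -0.14 to 0.11, Slpi from -0.16 to 0.22, Cd7 from -0.18 to 0.03, Cebpb from -0.13 to 0.07, Nkx2-1 from -0.02 to 0.07, Sox2 from -0.04 to 0.23 and Sftpc from -0.10 to 0.01. Genes chosen after their values were seen also turned, among them Ccna1, Cdc20b and Myb, as given below. Where an array or setting moved a count, the cause was not tested.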

Other observations

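Genes of the onset of multiciliation, chosen after their values were seen, were higher in Cebpa d/d 72 hr replicate 1 than in the other Cebpa d/d arrays at 0 and 72 hr. Ccna1, a cyclin of germ cells and of cells that amplify centrioles, read 8.26 in that array, 5.79 and 5.78 in the other 72 hr arrays and 6.12, 6.27 and 5.84 at 0 hr. Deup1, which builds the deuterosome on which centrioles are multiplied, read 10.24, 8.46 and 8.54 at 72 hr and 7.85 to 8.37 at 0 hr. Cdc20b, also of the deuterosome, read 7.53, 6.18 and 6.20, and Stil, which is needed for centriole assembly, read 6.90, 5.56 and 5.79. Myb, a transcription factor of early ciliated cells, read 9.13, 8.27 and 8.18 against 7.82 to 8.50 at 0 hr, though control arrays reached 8.97. Without replicate 1 the changes of Ccna1, Cdc20b and Myb turned from 0.53, 0.25 and 0.26 to -0.29, -0.20 and -0.05, and none of these 5 genes passed in either fit. Not all genes of the process were highest in replicate 1. Mcidas read 7.09, 6.96 and 6.96 against 6.86 to 7.38 at 0 hr, and Plk4, which passed with all arrays only, 8.33, 8.37 and 7.84. Gmnc read 6.23, 4.74 and 4.95 against 5.84 to 6.33 at 0 hr. It fell without replicate 1 (-1.18, adjusted p = 0.0281) and in control (-1.22, adjusted p = 0.0434). Ccno was barely highest in replicate 1, at 6.45 against 6.14 and 6.21 at 72 hr and 6.22 to 6.43 at 0 hr.

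Ligands and matrix proteins of injury, chosen the same way, were low in that array and high in its fellows. Hbegf, a ligand of the EGF receptor, read 7.17, 9.11 and 9.09 at 72 hr against 7.76 to 8.14 at 0 hr. Ereg, another such ligand, read 5.03, 7.44 and 6.41, Tnc, a matrix protein of wounds, 6.33, 8.03 and 7.61, and the chemokine Ccl8 5.66, 7.14 and 7.95. None of these 4 passed with all arrays, and without replicate 1 Ereg (2.23, adjusted p = 0.0279) and Ccl8 (1.90, adjusted p = 6.53e-04) passed while Hbegf (adjusted p = 0.151) and Tnc (adjusted p = 0.078) did not.

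Of the 60 genes outside the muscle lists that fell in both genotypes, chosen after their values were seen, Npr3, the clearance receptor of natriuretic peptides, read 8.96, 9.12 and 9.27 at 0 hr and 7.86, 7.82 and 7.38 at 72 hr in Cebpa d/d, with changes of -1.42 there and -1.61 in control. Tmem100, an endothelial membrane protein, changed by -1.20 and -1.62. Epas1, the hypoxia factor HIF2 alpha, changed by -0.85 and -1.10. Pigr, the receptor that carries immunoglobulin across the epithelium, changed by -1.13 and -2.90, and the difference between genotypes did not pass (1.77, adjusted p = 0.216).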
